A study of Trichoderma reesei with 12 samples.

Results

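In the filamentous ascomycete Trichoderma reesei 74 of 10879 genes met set limits on transcript level differences between an rgs4 deletion strain and the wild-type. The differences had to go in the same direction in constant light and in constant darkness. In the deletion strain 46 of the 74 genes, rgs4 itself included, were lower (0.599% of the 7675 genes with sufficient reads) and 28 were higher (0.365%). With each of the 12 libraries left out in turn, 24 lower (rgs4 included) and 12 higher genes met the limits every time. In darkness alone limma called only rgs4 among the 74 genes, where 0.0899% of all genes were called as lower. The lower genes included those of a SANT-related regulator, a multicopper oxidase and a homoserine dehydrogenase, the last with a gene number close to that of rgs4. Those of the small GTPases Arl1 and Arl2 were also lower, but fell short of the required difference in darkness when single libraries were left out. The higher genes included those of a GABA permease, an ABC transporter and an adenosine or AMP deaminase.

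Regulators of G-protein signaling (RGS proteins) act on the G-alpha subunits of heterotrimeric G-proteins. They speed up the hydrolysis of the bound GTP and so shorten the time in which the subunit signals, and in fungi this pathway links nutrient sensing with growth, development and the response to light. RGS4 of T. reesei, a producer of plant cell wall degrading enzymes, belongs to this family.

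RNA was sequenced from mycelium of QM6a, the wild-type, and of QM6aΔrgs4 (Δrgs4), in which a hygromycin resistance (hph) cassette replaced rgs4 in the QM6a background. The 12 cultures had cellulose as carbon source in minimal medium and were kept at 28 °C for 96 h. Of each strain 3 were kept in constant light (LL) and 3 in constant darkness (DD), which gives 4 groups of 3 libraries. Δrgs4 was 1 deletion strain with more than 1 copy of the deletion cassette according to the methods of the study, so that an effect of rgs4 and one of the additional cassette cannot be told apart in these libraries. Values are normalized counts, that is reads per gene scaled by the size factor that corrects for the depth of a library, as recovered from the deposited log2-like values. The libraries held 11.25 to 15.84 M (mega) reads on genes. The RNA is from whole mycelium, so that a lower level in every cell and fewer cells with the transcript cannot be told apart.

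A gene was taken as changed in the same way when 4 conditions held. Its mean over the 12 libraries had to be 50 normalized counts or more. The difference of log2(group mean + 2) between Δrgs4 and the wild-type had to have the same sign and a size of at least 0.3 in LL and in DD. On that side all 3 Δrgs4 libraries had to lie outside the range of the wild-type in LL as well as in DD, and LL and DD had to differ by less than 2 on the same scale in the wild-type. Of the 10879 genes in the data 7675 had a sufficient mean. In LL the 3 Δrgs4 libraries lay below the wild-type in 17.4% and above it in 19.9% of these genes, and with the size of at least 0.3 in 9.55% and 7.91%. In DD the shares were 7.4% and 9.67%, and 3.45% and 3.07% with this size. All conditions together left the 46 lower and 28 higher genes. The 73 genes without rgs4 are described below. These genes were chosen by the measured deletion effects in LL and DD, so that the sizes of these effects are given as a description and no test is attached to them.

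The deleted gene rgs4 (TrG0496W) was covered in the wild-type by 1710, 1588 and 1627 reads in DD, and by 1470, 2040 and 1961 in LL. For Δrgs4 these were 5, 0 and 0 (DD) as against 4, 0 and 0 (LL), which left 0.0969% and 0.0672% of the wild-type mean. A library with 0 reads allows up to 0.213% in DD and 0.191% in LL (3 reads over the size factor, counting error only).

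One library stood apart in the members. Δrgs4 DD replicate 3 was the library closest to the wild-type in 34 of the 45 lower genes and in 16 of the 28 higher genes. Its median log2 distance from the wild-type mean was -0.32 for the lower genes, against -0.61 and -0.57 in the other Δrgs4 DD libraries, and 0.31 against 0.49 and 0.46 for the higher genes. In LL replicate 3 was also the closest, in 28 lower and 12 higher genes, with medians of -0.41 and 0.37. Without Δrgs4 DD replicate 3 the conditions were met by 113 lower and 107 higher genes, and 44 of the 46 lower and 27 of the 28 higher genes remained. The share of genes lower in LL that were also lower in DD was then 17.7%, beside 8.30% of all genes, and for the higher genes it was 21.5% beside 13.0%.

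**Figure D1:**
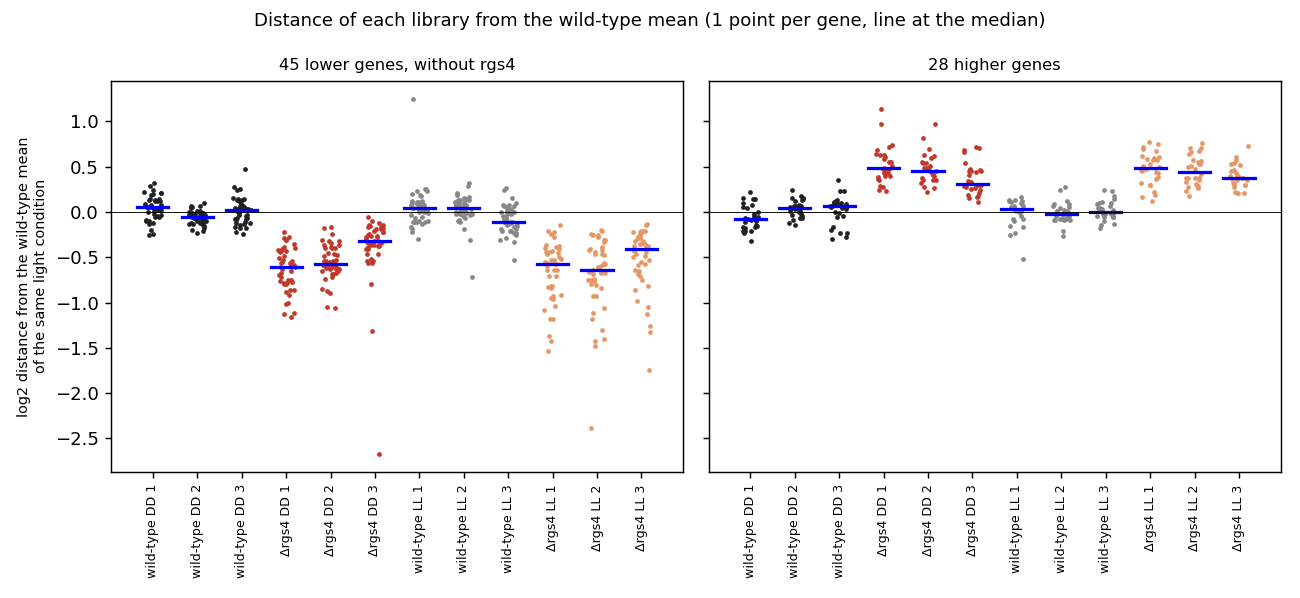
Log2 distance of each library from the wild-type mean of its light condition (y axis) for the lower genes (left) and the higher genes (right), 1 point per gene and a line at the median. In DD the medians of Δrgs4 replicate 3 (-0.32 and 0.31) lie closer to 0 than those of replicates 1 and 2, and the wild-type libraries lie around 0.

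Genes that met the conditions in one light condition were also followed into the other. LL and DD share no library, but the values are those that define the members, and the shares are a description. Of the 732 genes that met the conditions on the difference and on the libraries as lower in LL, 55 (7.51%) met them as lower in DD as well, beside 3.44% of all 7674 genes without rgs4, and 23 (3.14%) met them as higher in DD beside 3.08% of all. For the 607 genes higher in LL, 35 (5.77%) were also higher in DD beside 3.08% of all genes, and 12 (1.98%) were lower in DD beside 3.44%. Chosen in DD, 55 of 264 lower genes (20.8%) were lower in LL beside 9.54% of all, and 12 (4.55%) were higher in LL beside 7.91%. Of the 236 genes higher in DD 35 (14.8%) were higher in LL beside 7.91% of all, and 23 (9.75%) were lower in LL beside 9.54%. More than 3 in 4 genes chosen in one condition did not meet the conditions in the same direction in the other. The 55 lower and 35 higher genes are the members without rgs4 and the 10 lower and 7 higher genes that the limit on the light response removed. Over the 7674 genes without rgs4 the deletion effects in LL and DD had a Pearson correlation of 0.16. It is given as a description across genes, which are not independent. Of the 7675 genes with rgs4, 57.3% had the same sign in LL and DD. Between LL and DD, 21 genes were lower in LL and higher in DD, and 6 were higher in LL and lower in DD.

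**Figure D2:**
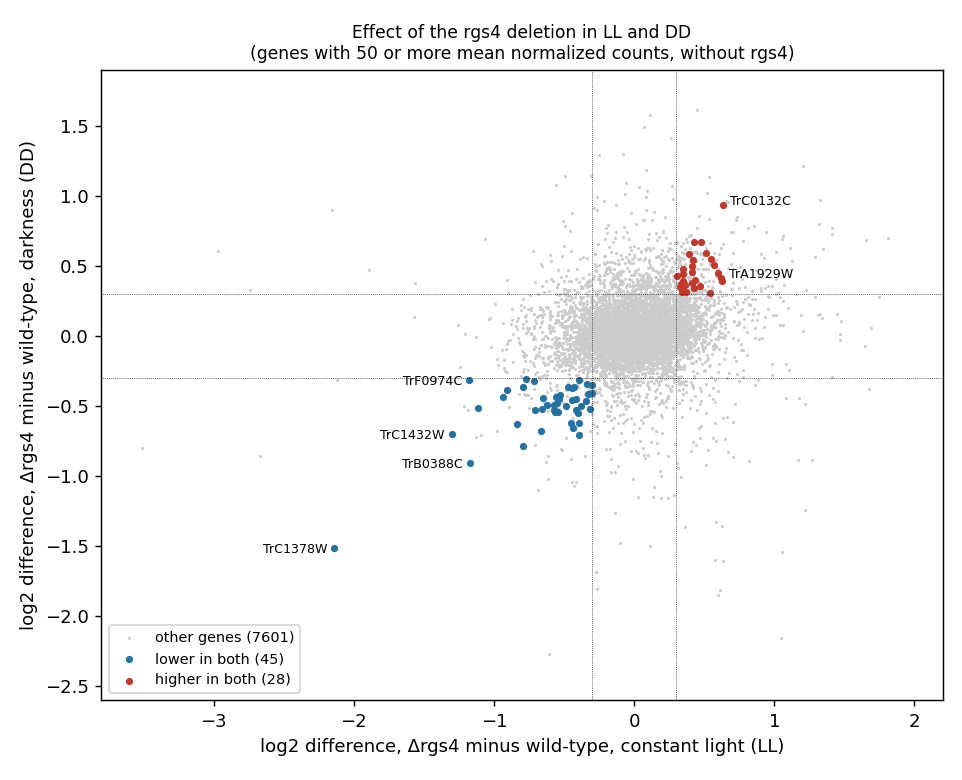
Log2 difference between Δrgs4 and the wild-type in LL (x axis) and DD (y axis), 1 point per gene with a mean of 50 normalized counts or more and without rgs4. The 45 lower genes (blue) and the 28 higher genes (red) lie beyond the dotted lines at 0.3 in both conditions, TrC1378W lies farthest from the other lower genes, and most of the other genes lie around 0 in both conditions.

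The mean levels of the lower genes over all libraries ranged from 59.2 to 4613 normalized counts and those of the higher genes from 54.6 to 32314 (TrB0855C). The 45 lower genes had a median log2 difference of -0.54 in LL (from -2.14 to -0.30) and of -0.49 in DD (from -1.51 to -0.31). The 28 higher genes had a median of 0.42 in LL (from 0.30 to 0.63) and of 0.42 in DD (from 0.31 to 0.93). Over all 7675 genes the median was 0.03 in LL and 0.02 in DD. The effects in LL and DD differed by less than 0.2 in 29 of the 45 lower and 23 of the 28 higher genes. A difference of more than 0.58, which is about 1.5-fold, was reached in both conditions by 6 lower genes, TrC1378W, TrB0388C, TrF0745W, TrC1432W, TrG0209W and TrC1021W, and by 1 higher gene, TrC0132C.

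Among the lower genes TrC1378W, for which the study's annotation gives no function, had the largest effect. In DD it had 529, 532 and 872 normalized counts in the wild-type and 279, 299.8 and 96.6 in Δrgs4. In LL the wild-type had 504, 127 and 145 and Δrgs4 71.4, 38.8 and 61.4. No Δrgs4 library reached a wild-type library of its light condition, but wild-type LL replicate 1 lay far above the other wild-type LL libraries, and Δrgs4 DD replicate 3 far below the other Δrgs4 DD libraries. On the log2 scale the strains differed by -2.14 in LL and -1.51 in DD, and without wild-type LL replicate 1 it was -1.22 in LL. The light change in the wild-type was then -2.23, so that TrC1378W would no longer pass the limit of 2.

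TrB0388C encodes a myb-type transcriptional regulator related to the SANT domain proteins, a domain found in proteins that act on chromatin. Its transcript levels in DD were 228, 199 and 169 normalized counts in the wild-type and 97.0, 105 and 113 in Δrgs4. In LL they were 58.7, 52.5 and 39.8 in the wild-type and 18.1, 22.8 and 22.9 in Δrgs4. All 6 Δrgs4 libraries were below every wild-type library of the same light condition, with a gap between the groups of 0.75 on the log2 scale in LL and 0.57 in DD. The log2 difference was -1.17 in LL and -0.90 in DD, and Δrgs4 kept 42.3% of the wild-type mean in LL and 52.9% in DD. In the wild-type LL and DD differed by -1.94 on this scale, just inside the limit of 2. Of the lower genes it had the lowest light difference in either strain.

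TrC1432W (a protein with a Duf341 domain of unknown function) had 425, 401 and 483 normalized counts in wild-type DD and 229.6, 276 and 299 in Δrgs4 DD. The LL libraries gave 361, 321 and 239.9 for the wild-type and 111, 122 and 138 for Δrgs4. The groups did not overlap, and the lowest wild-type library of LL still had more than 1.5 times the level of the highest Δrgs4 library. The log2 difference was larger in LL (-1.30) than in DD (-0.70). Its neighbour by number, TrC1431C, was also among the lower genes, with -0.39 in LL and -0.62 in DD.

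TrF0745W encodes an orphan secreted protein, that is a protein predicted to leave the cell and without known relatives. In DD the wild-type had 678, 619 and 656 normalized counts and Δrgs4 299.7, 389 and 440.0. In LL the wild-type had 2591, 2673 and 2077 and Δrgs4 1246, 1441 and 1555. Levels in LL were several times those in DD in both strains, and within each light condition every Δrgs4 library was below every wild-type library. With log2 differences of -0.79 in LL and -0.79 in DD, Δrgs4 had 57.8% of the wild-type mean in LL and 57.8% in DD, although the levels themselves differed between the light conditions.

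TrC1021W encodes a GCN5-type N-acetyltransferase, a family whose members transfer acetyl groups to amino groups of proteins or small molecules. It had 398, 340.4 and 316 normalized counts in wild-type DD and 215, 191 and 275 in Δrgs4 DD. In LL the values were 461, 449 and 367 in the wild-type and 296, 156 and 259 in Δrgs4. The wild-type levels of LL and DD overlapped, as did those of Δrgs4, while the strains were apart in both conditions. Log2 differences were -0.84 in LL and -0.63 in DD.

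**Figure D3:**
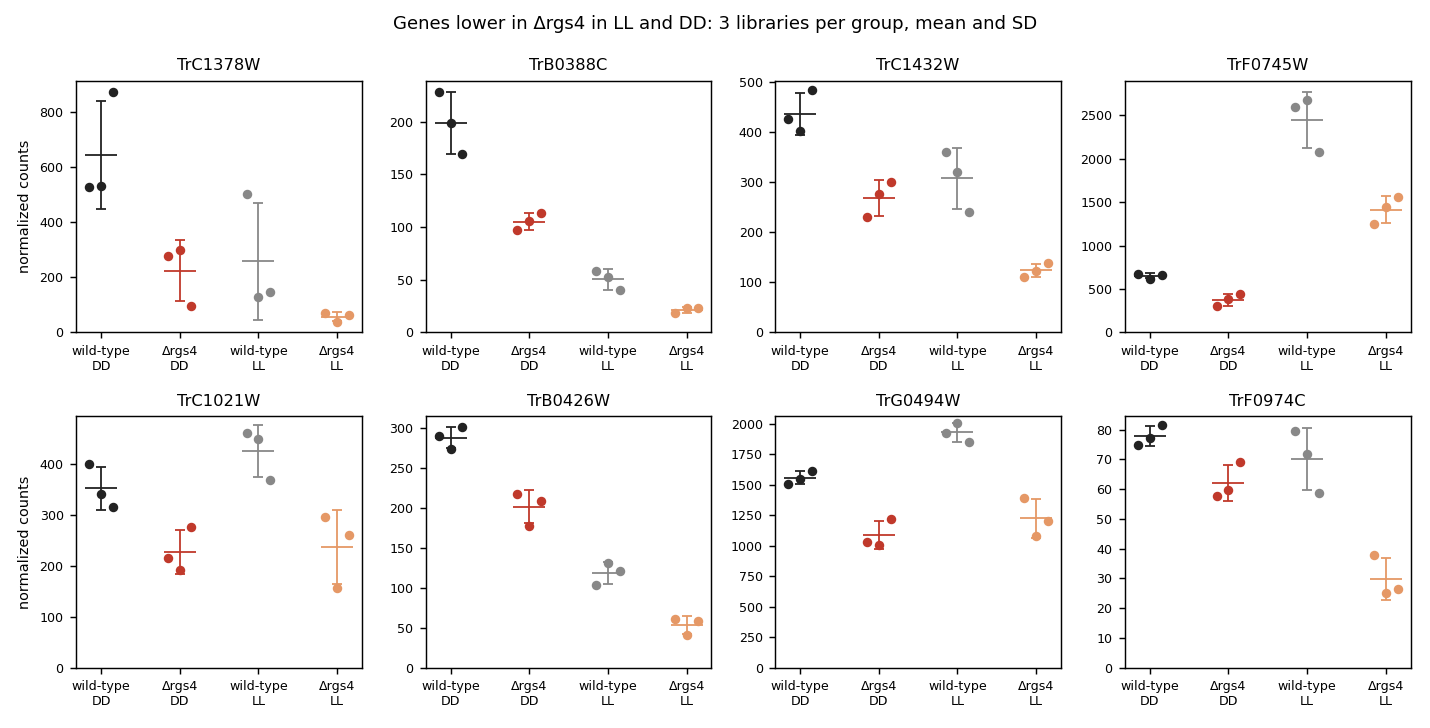
Normalized counts (y axis, linear from 0) of 8 lower genes in the 4 groups, with 1 point per library, the mean as a bar and the SD as whiskers (n = 3). In every panel the 3 Δrgs4 libraries lie below the 3 wild-type libraries of the same light condition, and TrC1378W shows the wide spread of its wild-type LL libraries.

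Enzymes of metabolism were among the lower genes as well. TrG0494W, the homoserine dehydrogenase gene thrA, acts in the branch of amino acid synthesis that leads from aspartate to threonine and methionine. It had 1508, 1551 and 1617 normalized counts in wild-type DD and 1034, 1006 and 1219.5 in Δrgs4 DD. In LL it had 1923, 2008 and 1855 in the wild-type and 1394, 1081 and 1201 in Δrgs4. Every Δrgs4 library was below the wild-type, and the log2 difference was -0.65 in LL and -0.52 in DD. By its number this gene lies close to rgs4. The gene numbered between them, TrG0495C, was higher in Δrgs4 with 0.45 in LL and 1.61 in DD, and it did not meet all conditions. Its difference in DD was the highest of all 7675 genes with a sufficient mean. On the other side TrG0497W differed by -0.07 and -0.13. Whether the inserted cassette acts on transcript levels of TrG0494W or TrG0495C was not tested.

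TrB0426W encodes a secreted multicopper oxidase of type 1. Multicopper oxidases oxidize substrates with oxygen as the electron acceptor, and the laccases belong to this family. In DD it had 289.6, 274 and 301 normalized counts in the wild-type and 217, 178 and 209 in Δrgs4. In LL there were 104, 131 and 121 in the wild-type and 61.5, 41.0 and 58.7 in Δrgs4. The strains did not overlap, and the log2 difference was more than 2 times as large in LL (-1.12) as in DD (-0.51). TrA1396C, the ProFAR isomerase of histidine synthesis, had 234, 222 and 234 in wild-type DD and 170.0, 149 and 208 in Δrgs4 DD. In LL it had 216, 234 and 184 in the wild-type and 101, 109 and 124 in Δrgs4, with log2 differences of -0.91 in LL and -0.39 in DD. The strains were apart in both conditions and closer to each other in DD.

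Both genes that the study's annotation lists as small GTPases of the RAS superfamily belonged to the lower genes. This annotation covers only genes that the study chose for their regulation in these libraries, so nothing is read for the family. Small GTPases are molecular switches that bind GTP. In yeast and mammals the Arl proteins among them act in membrane traffic and in the assembly of microtubules. TrE0853C (arl1) had 159, 188 and 230.4 normalized counts in wild-type DD and 140.3, 152 and 133 in Δrgs4 DD. In LL it had 171, 214 and 146 in the wild-type and 97.7, 79.8 and 98.1 in Δrgs4. In DD the highest Δrgs4 library was only 0.06 on the log2 scale below the lowest wild-type library, and in LL the gap was 0.56. This gave log2 differences of -0.93 in LL and -0.44 in DD. TrF0974C (arl2) had 74.8, 77.1 and 81.5 in wild-type DD and 57.6, 59.7 and 69.0 in Δrgs4 DD. In LL it had 79.4, 71.9 and 58.8 in the wild-type and 38.0, 25.1 and 26.6 in Δrgs4. Its effect of -0.31 in DD was close to the limit of 0.3, while that in LL was -1.18. Of all lower genes arl2 had the largest difference between the effects in LL and DD.

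The other annotated lower genes are of unknown function. TrF0725C had 285, 274 and 365 normalized counts in wild-type DD and 181, 146 and 237 in Δrgs4 DD. In LL the values were 978, 1013 and 802 in the wild-type and 689, 700.0 and 739 in Δrgs4. Its log2 difference was -0.39 in LL and -0.71 in DD, and it was 1 of 18 lower genes with the larger effect in DD. TrA0018C (DUF227) had -0.79 and -0.36, and TrE0357W, listed without a description, had -0.72 and -0.32. No annotation was at hand for the remaining genes with large effects in both conditions. TrG0209W had 156, 110.2 and 122 normalized counts in wild-type DD and 62.4, 70.3 and 108 in Δrgs4 DD, and in LL 48.9, 49.1 and 39.8 in the wild-type and 19.0, 26.2 and 39.4 in Δrgs4. Its log2 differences of -0.67 in LL and -0.68 in DD were almost the same, but the groups came within 0.01 of each other in LL and within 0.03 in DD. TrD0194C had 3382, 2935 and 2922 in wild-type DD and 1663, 1984 and 2692 in Δrgs4 DD, and in LL 1133, 1261 and 959 in the wild-type and 752, 731 and 785 in Δrgs4. The strains were apart in both conditions, with -0.56 in LL and -0.54 in DD, although the level in LL was less than that in DD in both strains. TrA0541W, TrE0222W and TrA0665W had effects from -0.71 to -0.54 in LL and from -0.55 to -0.53 in DD.

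Among the higher genes the largest effect was that of TrC0132C, an amino acid permease for gamma-aminobutyric acid (GABA) by its annotation, which is a carrier for amino acid uptake. In DD it had 53.9, 80.3 and 71.4 normalized counts in the wild-type and 152, 135 and 111 in Δrgs4. In LL the wild-type had 55.0, 65.2 and 64.5 and Δrgs4 85.0, 101 and 103. Every Δrgs4 library was above every wild-type library of both light conditions. The log2 difference was 0.63 in LL and 0.93 in DD, so that Δrgs4 had 157% of the wild-type mean in LL and 193% in DD.

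TrA0451W encodes an MRP-type ABC transporter, a family that moves conjugates and drugs across membranes at the expense of ATP. Its levels in DD were 520.5, 540.5 and 679 normalized counts in the wild-type and 893, 932 and 948 in Δrgs4. In LL they were 224, 255 and 278 in the wild-type and 350.0, 413 and 291 in Δrgs4. Levels were lower in LL than in DD in both strains, and in LL the lowest Δrgs4 library was just above the highest wild-type library. The log2 difference was 0.47 in LL and 0.67 in DD.

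TrA1929W encodes an adenosine or AMP deaminase, an enzyme of purine turnover that releases ammonia. It had 90.8, 95.3 and 99.6 normalized counts in wild-type DD and 134, 116 and 133 in Δrgs4 DD. In LL it had 376, 356 and 303 in the wild-type and 549, 536 and 513 in Δrgs4. The replicates were close to each other in all groups and the strains did not overlap, with log2 differences of 0.62 in LL and 0.41 in DD.

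The annotation used here has no entry for the other higher genes named here. For TrA0390C the study's text names a predicted amino acid transporter, but its annotation and another passage give that protein to TrA0392C, so no role is stated. TrC0395W was the higher gene with the closest effects in LL (0.55) and DD (0.55) among the 10 with the largest effect in both conditions, and its levels hardly changed with light. It had 803, 861 and 895 normalized counts in wild-type DD and 1209, 1177 and 1351 in Δrgs4 DD, and in LL 903, 891 and 809.8 in the wild-type and 1299.5, 1280.3 and 1239.5 in Δrgs4. The 6 Δrgs4 libraries were therefore above all 6 wild-type libraries. TrD1207W had 203, 256 and 249 in wild-type DD and 386, 334 and 286 in Δrgs4 DD, and in LL 794, 697 and 705 in the wild-type and 1206, 1042 and 1012 in Δrgs4. TrC0912W showed the reverse order of the light conditions, with 153, 165 and 230.4 in wild-type DD and 265, 273 and 291 in Δrgs4 DD, and in LL 53.8, 68.6 and 52.2 in the wild-type and 88.6, 74.1 and 88.9 in Δrgs4. In both genes every Δrgs4 library was above the wild-type of its light condition, by 0.57 (LL) and 0.51 (DD) for TrD1207W and by 0.51 and 0.59 for TrC0912W on the means. TrC0212W, TrC0168W and TrC0103W had effects of 0.42, 0.42 and 0.42 in LL and of 0.67, 0.54 and 0.46 in DD. TrA0390C had 0.35 in LL and 0.44 in DD. TrF1092C had 1373, 1766 and 1665 in wild-type DD and 2559, 2225 and 1774 in Δrgs4 DD, where Δrgs4 replicate 3 only just passed the wild-type. In LL its values were 4824, 4425 and 4679 in the wild-type and 7955, 6432 and 6696 in Δrgs4, and the strains were well apart. TrB1311C had 669, 661 and 499 in wild-type DD and 850.2, 847 and 702 in Δrgs4 DD, and in LL 145, 170.1 and 201 in the wild-type and 288, 291 and 221 in Δrgs4. Its effect was 0.63 in LL and 0.39 in DD.

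**Figure D4:**
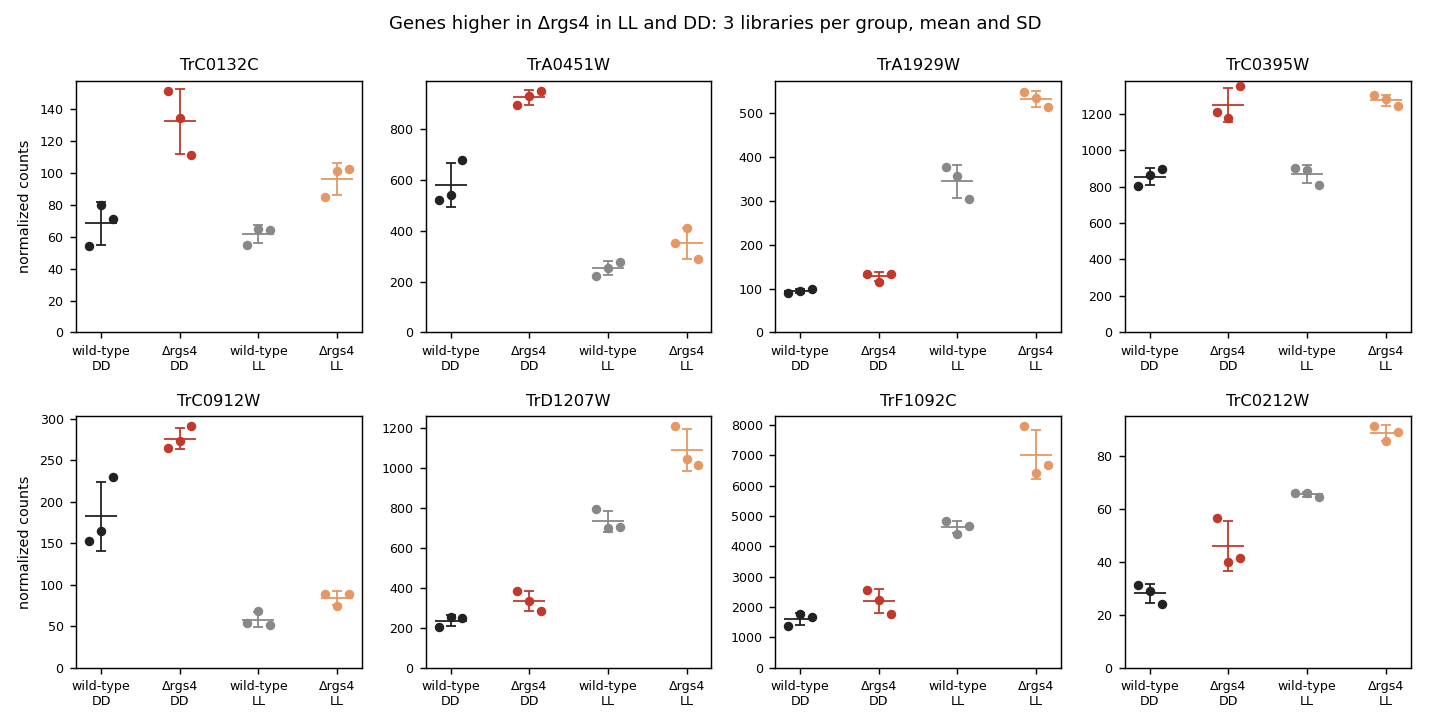
Normalized counts (y axis, linear from 0) of 8 higher genes in the 4 groups, with 1 point per library, the mean as a bar and the SD as whiskers (n = 3). In every panel the 3 Δrgs4 libraries lie above the 3 wild-type libraries of the same light condition, also for genes such as TrA1929W and TrD1207W whose level in LL is several times that in DD.

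The annotation of the study covers 205 of the genes, which it chose for their regulation in these libraries, so that the following counts describe the members and support nothing beyond them. It names 15 members, 12 lower and 3 higher. Of its 19 transport genes 2 were higher members (TrC0132C and TrA0451W) and 0 were lower. Of its 15 oxidoreductases 2 were lower (TrG0494W and TrB0426W), and of its 8 genes for transcription and chromatin 1 was lower (TrB0388C). None of the 9 carbohydrate-active enzymes, the 9 proteases, esterases and lipases, the 10 genes for the ribosome, translation and snRNA or the 4 glutathione-related genes met the conditions in both light conditions. The other 59 members, rgs4 included, have no entry in this annotation.

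The gene numbers, which run along the chromosomes, placed the members on all 7 chromosomes. Between 6 (chromosome F) and 16 (B and C) members lay on a chromosome. These were 8.11% of the members on F beside 9.20% of the genes with a sufficient mean. On B they were 21.6% beside 18.9%, and on C 21.6% beside 15.2%. Of the 28 higher genes none lay on G, which held 9.46% of the members and 10.7% of the genes. No test was made on positions. Members with numbers at most 2 apart formed 3 pairs and no longer run. These were TrC1431C with TrC1432W, TrE1143C with TrE1144W, and TrG0494W with rgs4. Both members of a pair were lower in each case. In the first and the second of these pairs the letters C and W at the end of the identifier mark opposite strands. The strand setting of the counting is unknown, so reads of overlapping transcripts could have been counted for either gene. Whether the transcripts of these pairs overlap was not tested, as the positions of the genes were not at hand. TrE1143C and TrE1144W had log2 differences of -0.54 and -0.62 in LL and of -0.45 and -0.49 in DD.

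Values close to the limits show how the selection shaped the list. TrD0186C (-0.3004 in LL) and TrC0927W (-0.3007 in LL) were the lower genes closest to the limit of 0.3, followed by TrD0408C with -0.31 in DD. TrB1236W, TrD0574C and TrB0464C lay just outside with -0.297, -0.296 and -0.296 in LL. Among the higher genes TrC0431W (0.30 in LL), TrB0855C (0.31 in DD) and TrB0451W (0.31 in DD) were just inside, while TrA1567W (0.29 in both), TrE0544W (0.29 in LL) and TrE0058C (0.28 in LL) were just outside. At the limit on light TrF0015W (-2.13) and TrF0056W (-2.11) were left out.

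With each of the 12 libraries left out in turn, 24 lower genes (rgs4 included) and 12 higher genes met the conditions every time. Among these were TrC1432W, TrC1021W, TrB0426W, TrG0494W and TrF0725C of the lower and TrC0132C, TrA0451W, TrA1929W, TrC0395W and TrF1092C of the higher genes. The genes arl1 and arl2 missed the limit of 0.3 in DD at least once. TrC1378W, TrB0388C and TrF0745W missed only the limit of 2 on the light change in the wild-type. Their light changes with all libraries were -1.31, -1.94 and 1.91. The gap between the strains was 0.81, 0.75 and 0.42 in LL and 0.82, 0.57 and 0.49 in DD on the log2 scale.

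In limma, fitted over 8895 genes with the thresholds of the study (|log2 fold change| over 0.58 and Benjamini-Hochberg adjusted p under 0.05), 15 lower members including rgs4 were called in LL and 4 higher ones, where 1.69% of all genes were called as lower and 0.427% as higher. In DD 1 member, rgs4, was called as lower (0.0899% of all genes) and no gene as higher (0.0%). At an unadjusted p under 0.05, 588 genes were higher in DD, and limma-voom called 9. For the mean of the effects in LL and DD 12 lower members including rgs4 (0.45% of all genes) and 1 higher member (0.101%) were called. The interaction of deletion and light was called in 0.506% of all genes as lower and in 0.202% as higher, and in 0 members (5 members at an unadjusted p under 0.05, and 0 called with limma-voom). The selection used these contrasts, and nothing is read from the counts. Without Δrgs4 DD replicate 3, 18 lower and 6 higher members were called in DD, where 1.45% and 1.74% of all genes were called. Without wild-type LL replicate 2, 43 genes were called as lower in LL in place of 150, and 7 as higher in place of 38.

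The light response of Δrgs4 was not used for the selection as such, although the limits on the other contrasts bound it. With limma, 19 of the 45 lower genes fell in light in Δrgs4 (42.2%, beside 22.0% of all 8895 genes tested) and 5 rose (11.1%, beside 14.2%), while 21 were not called. Of the 28 higher genes 11 rose (39.3%) and 7 fell (25.0%), and 10 were not called. Restricted to the 7014 genes with the same least mean and the same limit on the light change in the wild-type, 14.1% fell and 13.4% rose in Δrgs4. These shares describe the members, and no test was made between the members and the other genes.

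In the wild-type, 15 of the lower genes fell in light (21.6% of all genes, 13.8% of the restricted genes) and 4 rose (15.3% and 14.6%). Of the higher genes 7 fell and 11 rose. The direction of the light difference was the same in both strains in 43 of the 45 lower and in all 28 higher genes. This follows in part from the selection, as similar deletion effects in LL and DD leave the light difference similar in both strains.

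By limma with Benjamini-Hochberg adjustment, TrA1929W (adenosine or AMP deaminase) rose in light in Δrgs4 by 2.05 on the log2 scale (SE 0.10, adjusted p = 3.15e-08), with 1.84 in the wild-type. TrF0725C (unknown protein) rose by 1.93 (SE 0.17, adjusted p = 2.15e-06) and TrF0745W (orphan secreted protein) by 1.92 (SE 0.14, adjusted p = 6.36e-07). In each of these genes every Δrgs4 LL library was above every Δrgs4 DD library. Of the lower genes TrB0076C, which is without annotation, rose by 1.68 (SE 0.23). TrB0388C (SANT-related regulator) fell by 2.21 (SE 0.18, adjusted p = 1.33e-06) and the multicopper oxidase gene TrB0426W by 1.88 (SE 0.16). TrC1378W fell by 1.82 with a large standard error (0.54), and it was not called without Δrgs4 DD replicate 2 or with limma-voom. TrB0426W and TrC1378W were also named for the difference between their effects in LL and DD, so no p-value is given for them. All genes of this paragraph were named for the size of their light change in Δrgs4, so their values are a description.

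Light thus moved members of both directions up and down. Of the higher genes the ABC transporter gene TrA0451W fell by 1.41 (SE 0.14) and TrC0912W by 1.70 (SE 0.17), whereas TrD1207W rose by 1.70 (SE 0.13) and TrF1092C by 1.69 (SE 0.14). For the GABA permease gene TrC0132C (-0.45, SE 0.18) and TrC0395W (0.03, SE 0.072) no light response was called in Δrgs4. The same held for the homoserine dehydrogenase gene TrG0494W (0.17, SE 0.096) and for TrC1021W (0.03, SE 0.22). Of the lower genes arl2 (TrF0974C) had the largest difference between the effects in LL and DD, so no test is attached to it here. It fell by 1.03 in Δrgs4 (SE 0.18), beside a difference of -0.15 in the wild-type, whose LL and DD libraries overlapped. The interaction of deletion and light was called in no member, beside 0.506% of all genes as lower and 0.202% as higher. As the members were selected for effects of the same sign in LL and DD, nothing is read from this.

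**Figure D5:**
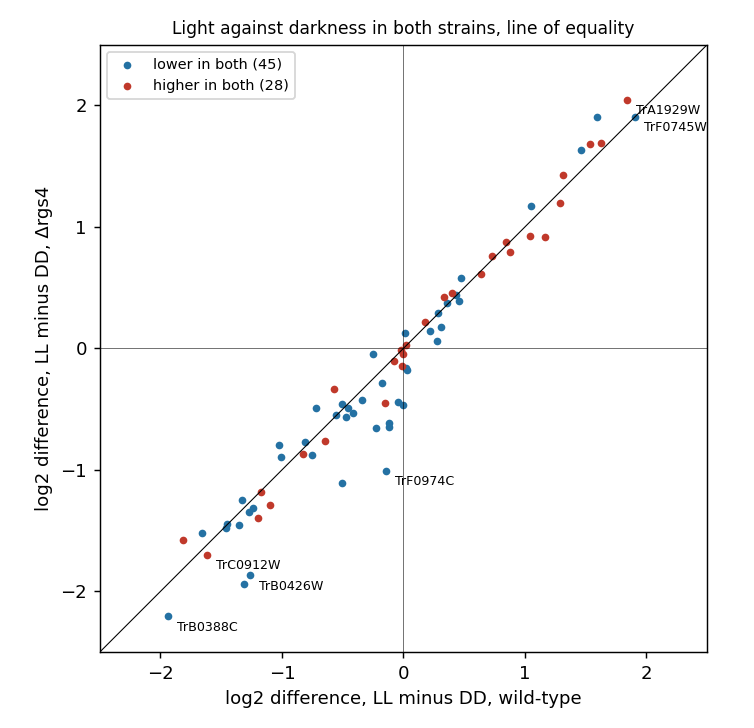
Log2 difference between LL and DD in the wild-type (x axis) and in Δrgs4 (y axis) for the 45 lower (blue) and 28 higher genes (red), with the line of equality. Most points lie close to the line and spread along it from -2.20 to 2.04 in Δrgs4, and arl2 (TrF0974C), near 0 in the wild-type and at -1.01 in Δrgs4, lies farthest below it.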

How the data were processed

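Cultures were grown in triplicate, and p-values measure the spread between these cultures. According to the study's methods rRNA was depleted, libraries were sequenced in paired-end mode, and reads were trimmed with bbduk, aligned with HISAT2 (version 2.2.1 per the labels) to the QM6a genome and counted per gene with featureCounts. Libraries were made with a stranded kit per the labels, but the treatment of strand and of multiply aligned reads by the counting is not stated. Values of near-identical paralogs and of genes that overlap are therefore uncertain. As deposited by the authors, the file holds log2-like values for 10879 genes, made with DESeq2 by variance stabilization. A gene without reads has the lowest value, 6.74, from which the transformation was inverted, and 100% of the values then came out as whole reads within 0.01. Deposited raw counts in 12 columns named by sequencing identifiers, which could not be paired with samples, were not used. Depth was 11.25 to 15.84 M reads on genes per library, and bounds derived from reads cover counting error only.

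Selection was done in Python 3.11.15 with numpy 2.4.6 and pandas 2.3.3. limma 3.58.1 in R 4.3.3 was fitted to all 12 libraries in 4 groups, with a variance trend, on log2(normalized counts + 2). The fit covered 8895 genes that had 10 reads or more in 3 libraries or more. Fold changes on this scale understate changes of genes with few reads. No count model was used, as the usable values are transformed. Steps were tested on simulated data. Members, gene lists and tests were chosen with earlier results of these data known. Named genes are rgs4, in each direction the 10 members with the largest lesser effect, the annotated members, the 3 on each side of the limit of 0.3, the 3 with the largest difference between LL and DD, and the 3 with the largest rise and fall in light in Δrgs4. Neighbours in a pair were named after their values were seen. 0% of the identifiers pair with the reference table at hand. Alternatives were other pseudocounts, TMM and upper-quartile factors, the values as deposited, other limits, limma-voom, other filters, the replicate number as a block, and each library left out.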

Additional observations from a re-analysis of the deposited data

Results flagged for a closer look

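Genes with opposite effects in LL and DD were flagged because every Δrgs4 library lay on one side of the wild-type libraries in LL and on the other in DD. There were 21 genes lower in LL and higher in DD, and 6 genes higher in LL and lower in DD, with at least 0.3 on the log2 scale in each condition. The difference between the effects was tested as the interaction of deletion and light in limma, which called 13 of these 27 genes. Of all genes 0.506% were called as lower and 0.202% as higher. Since the 27 genes were selected for this difference, the count is a description.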

How the results depend on the processing

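The number of lower and higher genes moved with the limits. It was 7 and 1 with a least effect of 0.58, 72 and 76 with 0.2, 90 and 141 without the condition on the libraries, 30 and 16 with a wild-type light change below 1, and 27 and 13 on the values as deposited, whose transformation compresses the differences of genes with few reads. The other pseudocounts, TMM and upper-quartile factors, least means of 20 and 200 and no limit on light kept both numbers within 1.5 times. Genes lower in LL and higher in DD numbered 4 on the values as deposited. Those higher in LL and lower in DD numbered 3 with TMM, 2 with upper-quartile factors and 3 on the values as deposited. With a least effect of 0.58 in the choosing condition the share with the same direction in the other was 11.4% (lower) and 9.64% (higher) for genes chosen in LL, and 14.95% and 22.4% for those chosen in DD. On the values as deposited it was 14.8% for lower genes chosen in DD.

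In limma the values as deposited gave 30 lower and 5 higher genes in LL, 27 and 2 in DD, 12 and 1 for the mean effect, 22 lower for the interaction, 721 higher in light in the wild-type, and 1267 lower and 721 higher in light in Δrgs4. Upper-quartile factors gave 21 higher genes in LL, 2 lower in DD, and 23 lower and 3 higher for the interaction. A pseudocount of 0.5 gave 5 lower genes in DD. limma-voom gave 30 lower and 9 higher in DD and 10 higher for the interaction. No filter beyond 1 read gave 4 lower in DD, and 28 lower and 9 higher for the interaction. The causes were not tested. With the replicate block there were 3 lower genes in DD, 19 lower and 3 higher for the mean effect, and 4 lower and 0 higher for the interaction (716 higher in limma with the block at an unadjusted p under 0.05). The labels do not say that a number marks a shared batch. Deviations of libraries with the same number correlated with r from -0.41 to 0.35 in 18 pairs (median 0.03), 6 of them over 0.1. Libraries with different numbers had r from -0.42 to 0.44 (median -0.01). With 3 libraries per group these ranges cannot decide whether a number marks a shared batch.

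Leaving out 1 library at a time gave 43 to 113 lower and 24 to 107 higher genes, 19 to 45 genes lower in LL and higher in DD, and 5 to 19 higher in LL and lower in DD. The share with the same direction was 6.14% to 17.7% (lower) and 5.04% to 21.5% (higher) for genes chosen in LL, and 19.0% to 25.9% and 12.2% to 21.3% for those chosen in DD. limma called 43 to 189 lower and 7 to 56 higher genes in LL, 1 to 129 and 0 to 154 in DD, 9 to 91 and 2 to 92 for the mean effect, 7 to 103 and 0 to 89 for the interaction, 1809 to 1953 and 1279 to 1397 in light in the wild-type, and 1810 to 1997 and 1197 to 1292 in light in Δrgs4. The upper ends of the numbers of lower and higher genes, of the shares chosen in LL and of the calls for deletion and interaction came without Δrgs4 DD replicate 3, and the lower ends for LL without wild-type LL replicate 2. Without wild-type LL replicate 3 there were 19 genes higher in LL and lower in DD. The 8 lower genes of DD became 1 to 3 without any other library except Δrgs4 LL replicate 1 (9). For the mean effect 9 to 26 lower genes were called without a wild-type DD library, wild-type LL replicate 1 or 2, Δrgs4 DD replicate 1 or 2 or Δrgs4 LL replicate 1. The light response in Δrgs4 of the named genes kept its call in 900 comparisons with an alternative, lost it in 21 and gained it in 2, and was reversed in no called gene.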

Other observations

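Of the 17 genes that only the limit on the light response kept out, TrG0838W had a log2 difference between Δrgs4 and the wild-type of 0.91 in LL and 0.58 in DD and a light difference of -4.71 in the wild-type. TrB1260C had 0.65 and 0.97 with a light difference of -3.51. TrE0012W was lower in Δrgs4 in both conditions, with -2.67 in LL and -0.86 in DD, and its level rose by 4.75 from DD to LL in the wild-type. Its mean over the 12 libraries, 79.6 normalized counts, came mostly from LL. The difference of TrE0012W in DD therefore rests on few counts. TrF0044C had -0.62 and -0.86 with a light difference of -2.19. These 4 genes were chosen after their values were seen.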
